A study of Arabis alpina with 12 samples.

Results

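Shoot apices of pep1-1 and wild-type (WT) Arabis alpina were compared by RNA sequencing, in 3 pep1-1 libraries and 3 WT libraries, which are 6 of the 12 libraries of the study. The libraries were chosen by their labelled genotype and tissue, and the other 6 came from leaves of the same genotypes. Both genotypes were in the accession Pajares, were labelled as 2 weeks old (the design text of the series gives 10 days), grew on soil at 22 °C in long days, and were sampled at Zeitgeber hour 8. The mutant libraries bear the name PEP1 in their titles and pep1-1 in their genotype label, and each direction below rests on that genotype label. One mutant line was compared with Pajares, so effects of the mutation and of any other difference between the 2 stocks cannot be told apart. No label says that replicates were separate plants or pools, and the p-values then measure the spread between these libraries, which may be technical.

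PEP1 (PERPETUAL FLOWERING 1) encodes a MADS-domain transcription factor and is the orthologue of FLC, which represses flowering in Arabidopsis thaliana until a long cold period has passed. In the perennial Arabis alpina, PEP1 likewise holds back flowering before cold and restricts the season in which flowers form, and pep1 mutants flower without cold treatment. The shoot apex holds the meristem that forms leaves or flowers, so the comparison shows which apex transcripts differ when the repressor is mutated, in plants that had no cold treatment named in the labels.

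The deposited tables pair no identifier with a gene name, so PEP1 itself, known flowering genes, and markers of the apex or of leaves were not checked here. For the same reason identifiers are printed for 2 rises and 2 falls, and the other genes are given by position on the chromosomes of the authors' assembly, whose version is not given in the sources used here. The 6 apex libraries held between 19746210 and 43695184 counted reads with 1 transcript row per gene, the smallest total being that of WT replicate 3. No replicate pair agreed within counting noise (the chi-square statistic was 12.7 to 83.2 per degree of freedom).

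Few apex genes passed the threshold in the main fit, and 34 of the 52 that passed were higher in the mutant. A gene that did not pass may still differ between the genotypes. Of 22157 genes tested, 52 passed an adjusted p of 0.05 in edgeR's quasi-likelihood test, which is 0.235% of the genes tested. In pep1-1, 34 genes (0.153%) were higher and 18 (0.0812%) were lower. These counts depend on the fit. The DESeq2 Wald test called 412 genes, one fit of all 12 libraries 320, and a fit with the replicate number as a block 600. Rises made up 65.4% of the 52 calls, but 47.1% of the 17 genes with an edgeR adjusted p under 0.01 and 47.4% of the 19 called without WT replicate 2. The remaining 13308 of 35465 gene models had too few reads to be tested. An unadjusted p under 0.05 was found for 2376 genes (10.7%), with 1327 higher and 1049 lower. The median log2 fold change of all genes tested was -0.0080.

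Rises and falls had different size ranges. Rises ran down to 1.63-fold, with 9 of 34 under 2-fold, 13 between 2- and 4-fold and 12 at 4-fold or more. No called fall was under 2-fold, the smallest being 2.67-fold, with 8 of 18 between 2- and 4-fold and 10 at 4-fold or more. The median log2 fold change was 1.46 for the rises and -2.20 for the falls. Genes with no reads in one genotype stay beyond these medians in size when set at a floor of 3 reads over that group, so the medians do not change. The absence of small falls held for edgeR with either set of size factors and for limma-voom, but the fit with a replicate block called 140 falls under 2-fold among 192, the DESeq2 Wald test 67 among 116, one fit of all 12 libraries 67 among 121, and the fit without a low-count filter 4 among 25. Without WT replicate 2 there was 1 such fall, and without pep1-1 replicate 2 there were 2.

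**Figure D1:**
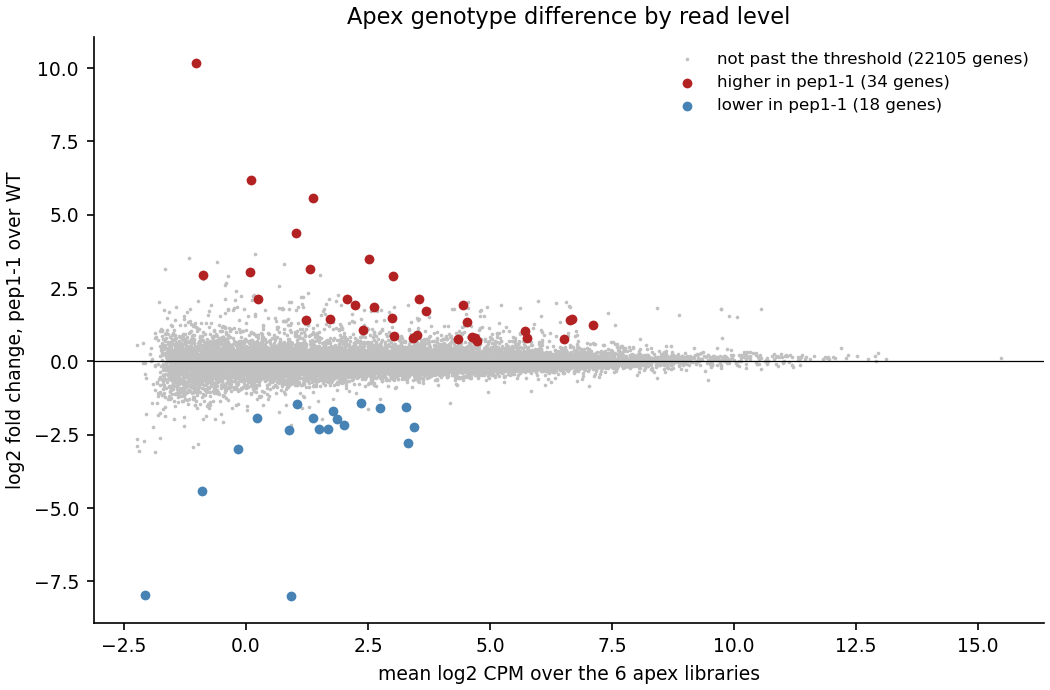
Log2 fold change (pep1-1 over WT) against the mean log2 CPM (reads scaled to a common library size) of the 6 apex libraries, one point per gene tested. The 34 called rises spread over nearly the whole range up to a mean log2 CPM of about 7, while the 18 called falls all lie at 4 or below.

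Called falls stood at low to middle read levels, while called rises were found in every level class. CPM are scaled to library size and are not corrected for transcript length, so these classes order genes by reads and not by molecules. Among 2276 genes with a mean log2 CPM under 0, 2 rose and 3 fell. Among 4407 genes between 0 and 2, 8 rose and 9 fell, and among 6737 genes between 2 and 4, 12 rose and 6 fell. In the class from 4 to 6, with 6019 genes, 8 rose, and in the class of 6 and over, with 2718 genes, 4 rose. No gene fell in these 2 upper classes, although the fit with a replicate block called 80 falls there beside 220 rises, DESeq2 27 beside 141, one fit of all 12 libraries 24 beside 101, and the fit without a low-count filter 3 beside 23. The fit without WT replicate 2 called 1 fall and 0 rises there. The highest WT mean of any called fall was 28.2 CPM, whereas 6 rises had a mutant mean of at least 50 CPM, up to 217 CPM.

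The spread between replicates was largest in the lowest class, and the smallest change that passed was largest there. The median SD of log2 CPM in the lowest class was 0.40 in WT and 0.38 in pep1-1, and the smallest called change there was 2.95 on the log2 scale. From 4 to 6 these medians were 0.10 and 0.14, and the smallest called change was 0.71. In the class of 6 and over they were slightly higher again, at 0.11 and 0.15, with a smallest called change of 0.77. Over all genes tested the median SD was 0.15 in WT and 0.18 in pep1-1 (n = 3 each). The common biological coefficient of variation, which is the spread beyond counting noise, was 15.1% in apex and 10.2% in leaf.

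**Figure D2:**
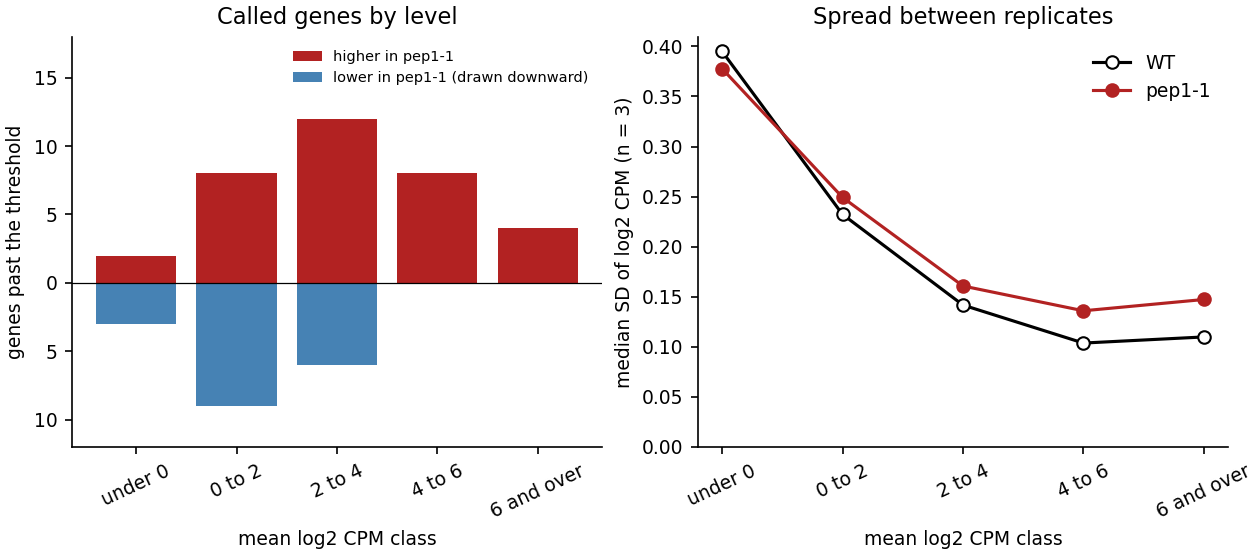
Left, genes past the threshold in each class of mean log2 CPM, rises upward and falls downward. Right, the median over genes of the SD of log2 CPM between 3 replicates, by genotype. No called fall lies in the 2 upper classes (8 and 4 rises), and the spread in pep1-1 is above that in WT in each class but the lowest.

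The 4 largest rises and the largest named fall were transcripts near absent in one genotype. With under 0.5 CPM in one genotype and at least 2 CPM in the other, 5 rises and 3 falls met that description, out of 13 such genes among all tested. Aa_G297760 on chromosome 7 (25050637 to 25054110) had 0 reads in each WT apex library and 89, 124 and 284 reads in pep1-1 replicates 1, 2 and 3. Against a floor of 3 reads over the WT group it was at least 129-fold higher in pep1-1 (edgeR adjusted p = 0.0293). Aa_G874400 on the scaffold scaff_47458_1 (1 to 1630) stood at 0.149, 0.0880 and 0.0492 CPM in WT and at 9.14, 7.09 and 6.57 CPM in pep1-1. The lowest mutant library was far above the highest WT library, with a log2 fold change of 6.17 (SE 0.30, edgeR adjusted p = 0.000161).

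A locus on chromosome 6 (4449808 to 4451761) held 28, 7 and 2 reads in WT and 691, 704 and 830 in pep1-1, and WT replicate 1 thus carried most of the WT reads. A locus on chromosome 8 (26096563 to 26097447) was even among replicates, at 0.328, 0.528 and 0.393 CPM in WT and 9.43, 7.65 and 9.36 CPM in pep1-1. A locus on chromosome 5 (19142676 to 19144240) was the weakest of the 5, with 0.268, 0.235 and 0.590 CPM in WT and 2.72, 3.41 and 2.32 CPM in pep1-1. Their log2 fold changes were 5.57, 4.38 and 3.04.

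Among the falls, Aa_G117060 on chromosome 6 (4661693 to 4663219) had 1034, 577 and 748 reads in the WT apex libraries and 0, 4 and 8 in the pep1-1 libraries. Its WT level varied, at 30.8, 16.9 and 36.8 CPM, while no mutant library exceeded 0.189 CPM. It had a log2 fold change of -8.00 (SE 0.51, edgeR adjusted p = 0.00103). Aa_G544180 on chromosome 5 (18704112 to 18717847), a model spanning 13736 bp, stood at 1.55, 1.32 and 3.24 CPM in WT and at 0.0959, 0.0509 and 0.118 CPM in pep1-1. This corresponds to a log2 fold change of -4.43 (SE 0.52, edgeR adjusted p = 0.0214). A locus on chromosome 1 (9309270 to 9310193) fell from 1.97, 2.11 and 2.90 CPM to 0.224, 0.280 and 0.355 CPM.

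One further fall was left out by the level minimum of the rule for named genes and was chosen after its values were seen. It lies on chromosome 6 (19562629 to 19564983) and had 41, 29 and 14 reads in WT and 0 in each pep1-1 library. Against a floor of 3 reads over the mutant group it was at least 35.9-fold lower in pep1-1 (edgeR adjusted p = 0.0316).

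The other 7 named rises were outside that description. The largest of them was on chromosome 4 (21856576 to 21859137), at 1.31, 1.82 and 2.02 CPM in WT and 16.7, 19.4 and 20.9 CPM in pep1-1. It was tight in both groups and had a log2 fold change of 3.49 (SE 0.17, edgeR adjusted p = 0.000161). A locus on chromosome 3 (24168695 to 24171270) stood at 0.656, 1.55 and 0.344 CPM in WT and 8.25, 6.84 and 9.03 CPM in pep1-1. A locus on chromosome 1 (871518 to 874211) stood at 1.73, 4.43 and 3.24 CPM in WT and 20.5, 15.5 and 33.9 CPM in pep1-1. Relative to their mean, the WT libraries of the last 2 loci were further apart than those of the first.

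The other 4 named rises ran from 4.38- to 7.72-fold. On chromosome 2 (25713931 to 25715065) a weak transcript with 6, 7 and 2 reads in the WT libraries went from 0.161 ± 0.0558 to 1.33 ± 0.107 CPM (SD, n = 3 each). Its WT level was under 0.5 CPM, and it missed the description of near absent only through its mutant level under 2 CPM. On chromosome 4 (13104666 to 13107580) the means were 0.531 ± 0.176 and 2.40 ± 0.353 CPM. On chromosome 5 (18801877 to 18803808) they were 1.99 ± 0.336 and 8.67 ± 1.03 CPM. On chromosome 6 (29837860 to 29842808) they were 5.59 ± 1.59 and 24.8 ± 1.20 CPM, so this transcript was the best covered of the 4.

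The remaining named falls lay between 3.82- and 6.85-fold. On chromosome 8 (5765423 to 5770059) the WT libraries stood at 28.2, 25.2 and 26.2 CPM and the pep1-1 libraries at 2.72, 3.92 and 4.89 CPM. On chromosome 2 (25116053 to 25120037) they stood at 22.9, 23.8 and 23.9 CPM and at 5.31, 4.96 and 4.61 CPM. This second locus had the smallest SE of any named gene, with a log2 fold change of -2.25 (SE 0.098, edgeR adjusted p = 0.000161). On chromosome 8 (5257134 to 5261576) the means were 6.23 ± 0.670 and 1.27 ± 0.467 CPM. Of the other 6, 2 belong to the neighbouring pairs described further on, and 4 lie on unplaced scaffolds: scaff_73268_1 (9465 to 11571), scaff_52928_1 (20396 to 24394), scaff_43269_1 (1307 to 1851) and scaff_43932_1 (8272 to 9263). Their WT means were 3.96, 8.42, 4.997 and 2.17 CPM, and their pep1-1 means were 0.788, 1.90, 1.29 and 0.568 CPM.

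**Figure D3:**
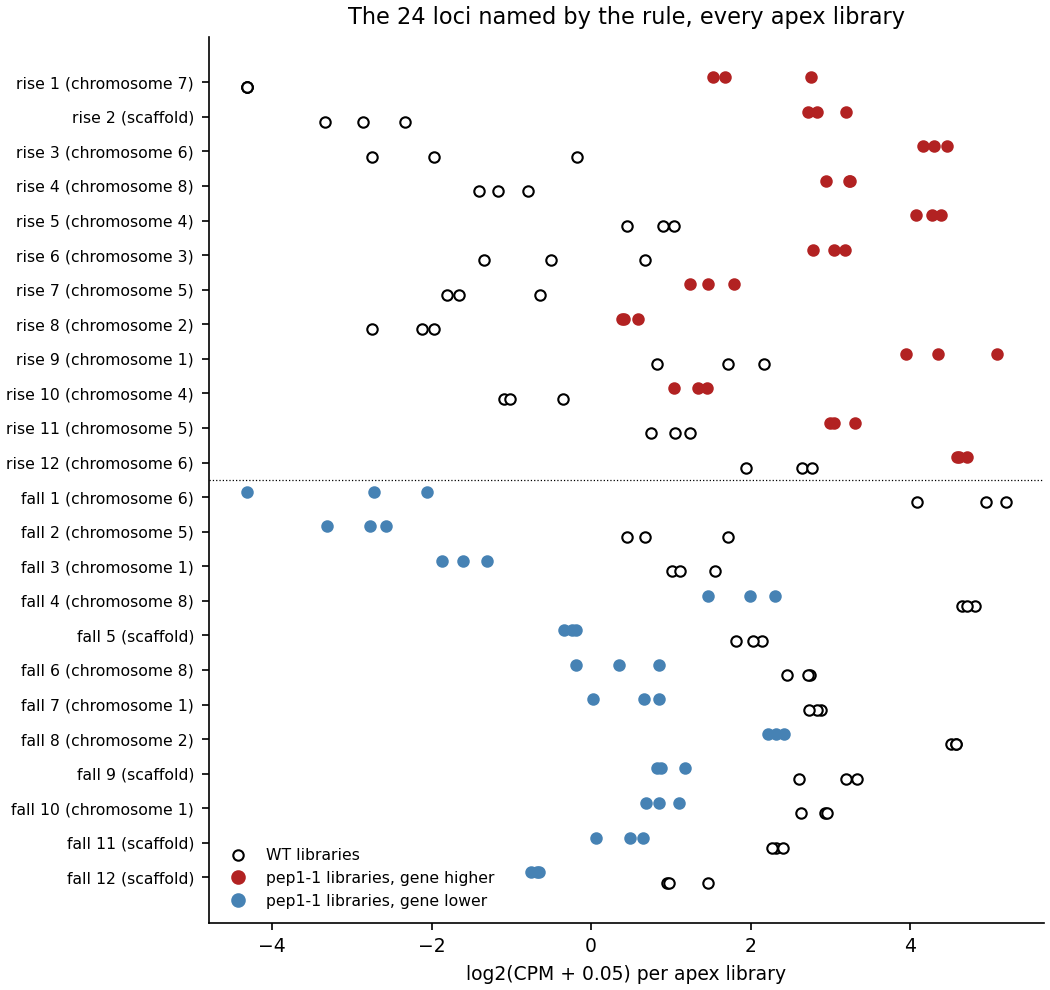
Each apex library of the 24 named loci on the log2(CPM + 0.05) scale, WT as open and pep1-1 as filled circles, rises above the dotted line and falls below it, ordered by fold change. Loci were chosen to have no overlap between genotypes, and rise 1 has all 3 WT libraries at 0 reads.

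The best covered changes were 6 rises with at least 50 CPM in the mutant, all under 3-fold. On chromosome 1 (20342825 to 20344620) WT libraries stood at 83.1, 93.7 and 96.1 CPM and pep1-1 libraries at 233, 162 and 255 CPM. On chromosome 5 (7912370 to 7915254) the values were 62.0, 64.2 and 63.6 CPM and 190, 127 and 196 CPM. On chromosome 2 (26000799 to 26004363) they were 58.3, 63.9 and 62.1 CPM and 201, 119 and 175 CPM. In these 3 the WT libraries were close together, and pep1-1 replicate 2 rose least.

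The other 3 had smaller rises. On chromosome 8 (1526327 to 1530100) the means were 70.2 ± 4.50 CPM in WT and 120 ± 12.3 CPM in pep1-1 (SD, n = 3 each). Another locus on chromosome 8 (6376667 to 6379616) rose from 36.9 ± 3.51 to 74.9 ± 11.5 CPM, and one on chromosome 7 (23545227 to 23545781) from 41.1 ± 2.71 to 71.3 ± 8.81 CPM. Over all 6, log2 fold changes ran from 0.77 to 1.44, with edgeR adjusted p between 0.0194 and 0.0400.

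**Figure D4:**
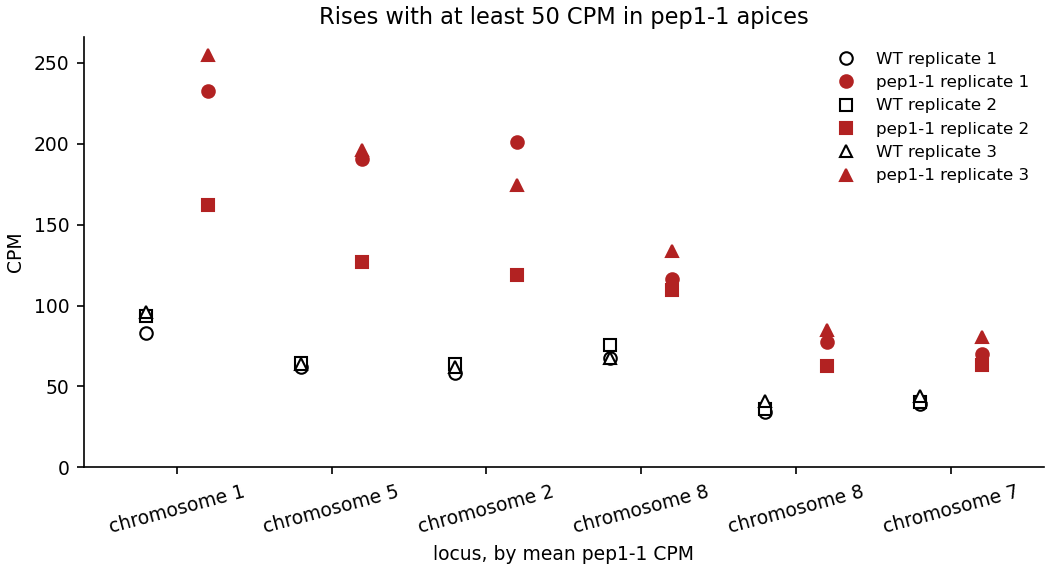
CPM in each apex library for the 6 rises with a mutant mean of at least 50 CPM, WT open and pep1-1 filled, with one symbol per replicate number. In all 6 the lowest pep1-1 library is replicate 2, and it still lies above the highest WT library.

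Mutant replicate 2 tended to have the lowest values among the rises. It was the lowest of the 3 mutant libraries in 19 of 34 rises, against 28.8% of all genes tested. In the median rise, pep1-1 replicates 1, 2 and 3 stood 1.52, 1.13 and 1.48 above the WT mean, on the scale of log2(CPM + 0.5). In the median fall the 3 libraries were close together, at -1.73, -1.81 and -1.74. Without pep1-1 replicate 2 the count was 140 genes, of which 123 were higher, and 43 of the 52 were among them.

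That library also stood far apart at 3 loci that had at least 4-fold differences but did not pass. These were the best covered of 43 such genes and were chosen after their values were seen. On scaff_59891_1 (1 to 260) the WT libraries stood at 74.4, 38.9 and 60.0 CPM and the pep1-1 libraries at 117, 521 and 65.8 CPM. On scaff_69095_1 (1 to 355) and on chromosome 7 (15879612 to 15880266) replicate 2 reached 374 and 135 CPM, where the other mutant libraries were at 80.8 and 39.1 CPM and at 28.0 and 16.1 CPM. Of the 43 genes, 29 had no overlap between genotypes, against 17.0% of all genes tested. The 43 were selected for large differences, which makes overlap less likely. In both genotypes 10 of the 43 stayed under 1 CPM.

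All 52 called genes had each replicate of one genotype above each replicate of the other, but so did 3774 of the 22157 genes tested (17.0%), of which 3722 did not pass. The 6 libraries separated by genotype along the first principal component, with 34.9% of the variance, WT from -32.0 to -13.1 and pep1-1 from 10.7 to 43.4. The second component (26.4%) spread the replicates within each genotype, with replicates 1, 2 and 3 at 13.5, -8.60 and -32.6 in WT and at 37.2, 6.18 and -15.7 in pep1-1. Replicate 1 was thus highest and replicate 3 lowest in both genotypes. Correlations of log2 CPM over genes were between 0.985 and 0.988 within WT, between 0.982 and 0.986 within pep1-1, and between 0.973 and 0.984 across genotypes, so the ranges for mutant pairs and for pairs across genotypes overlapped.

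Fits with one library fewer, which also have less power, called other numbers of genes. The count was 15, 19 and 24 without WT replicates 1, 2 and 3, of which 15, 17 and 24 were among the 52. Without pep1-1 replicates 1 and 3 it was 22 and 31, of which 21 and 30 were among the 52. At a mean log2 CPM of 4 or more, where 12 rises passed with all libraries, 0, 0 and 1 rises were called without WT replicates 1, 2 and 3, and 1, 67 and 4 without pep1-1 replicates 1, 2 and 3.

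Of the 24 named genes, 12 kept their call under all 14 alternatives applied to them, and no direction reversed. Aa_G874400 and Aa_G117060 were among the 12. The call of Aa_G297760 ended without WT replicate 1, 2 or 3 (edgeR adjusted p = 0.0983, 0.0908 and 0.0652) and without pep1-1 replicate 2 (0.0505). That of Aa_G544180 ended without WT replicate 1, pep1-1 replicate 1 or pep1-1 replicate 3 (edgeR adjusted p = 0.0713, 0.0835 and 0.0571).

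Among the other rises, 5 lost their call when a library was left out. The locus on chromosome 3 (24168695) lost it without WT replicate 1, pep1-1 replicate 1 or pep1-1 replicate 3 (edgeR adjusted p = 0.133, 0.0698 and 0.0855). That on chromosome 5 (19142676) lost it without WT replicate 1, WT replicate 2 or pep1-1 replicate 1 (0.117, 0.0959 and 0.0570). That on chromosome 2 (25713931) lost it without any one WT library or without pep1-1 replicate 1 (0.0525 to 0.0896). The loci on chromosome 1 (871518) and chromosome 4 (13104666) each lost it in 5 of the 6 fits with one library fewer. The exceptions were the fit without pep1-1 replicate 2 for the first (0.0849 to 0.163 in the others) and without pep1-1 replicate 3 for the second (0.0505 to 0.146).

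Of the other falls, 5 lost their call in the same way. The locus on scaff_43932_1 kept it only without pep1-1 replicate 2 (edgeR adjusted p = 0.0817 to 0.117 in the other 5 fits). Those on scaff_43269_1, scaff_52928_1 and chromosome 8 (5257134) lost it without WT replicate 1 (0.0604, 0.0541 and 0.0896) or WT replicate 2 (0.0517, 0.0667 and 0.0849). That on chromosome 1 (9310917) lost it without WT replicate 1 (0.0529).

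Called genes lay side by side in 2 places, both on chromosome 1 and both lower in pep1-1. At 9309270 to 9313861 a gap of 723 bp separates the near-absent locus above from one that stood at 7.34, 7.07 and 6.59 CPM in WT and 1.76, 0.966 and 1.54 CPM in pep1-1. At 12026933 to 12030136 a gap of 353 bp separates a locus with means of 7.16 ± 0.859 and 1.81 ± 0.273 CPM from one with 3.33 ± 0.259 and 1.21 ± 0.221 CPM (SD, n = 3 each). In both places the neighbours fell together, and without a stated strand setting reads from adjacent models cannot be fully told apart.

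Most next neighbours of called genes were not called, but calls and 2-fold differences made up a larger share of them than of all genes tested. Of 99 flanking gene models 65 were tested, and 9 of these differed at least 2-fold. Of the 9, 4 passed, where 0.235% of all genes tested passed, and 5 did not. The 4 are the members of these 2 pairs, each counted as the neighbour of its called partner. They are thus called genes themselves and no separate evidence about neighbours. Each of the 5 moved in the direction of its called gene, as did 44 of all 65, and the cause was not tested. Over all 22157 genes tested, 459 differed at least 2-fold, of which 416 did not pass. The median size of log2 fold change was 0.19 in the 65 neighbours and 0.14 in all genes tested. Around a rise on chromosome 3 (27141660 to 27142654) both neighbours stood higher in pep1-1 without passing, with log2 fold changes of 1.54 and 2.06. On scaff_73268_1 the model 73 bp before the named fall had means of 1.16 CPM in WT and 0.143 CPM in pep1-1 (edgeR adjusted p = 0.0813). The model 129 bp after the chromosome 1 fall at 6361358 had means of 29.9 CPM in WT and 11.2 CPM in pep1-1 (edgeR adjusted p = 0.0537). No annotated span of a flanking model overlapped that of its called gene.

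Leaf libraries of the same genotypes, which share no library with the apex comparison, gave the same sign for all 49 called genes that could be tested there. Of these, 28 passed in leaf (13 rises and 15 falls), where 0.414% of 22936 genes passed. They make up 53.8% of the 52 apex genes and 29.5% of the 95 leaf genes. Nearly all tested falls (15 of 17) passed in leaf, against 13 of 32 tested rises, a contrast that was not tested. The sets also differ in size, since 9 of the 34 called rises and no called fall were under 2-fold in apex. Aa_G297760 had 0.0787, 0 and 0 CPM in WT leaves and 1.80, 3.95 and 3.05 CPM in mutant leaves. Aa_G874400 had 0.0262, 0.401 and 0.0267 CPM in WT leaves and 14.5, 13.4 and 13.8 CPM in mutant leaves. Apex and leaf CPM were scaled apart, so their levels are not compared here.

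The 19 rises that were tested in leaf without passing had log2 fold changes from 0.23 to 1.28 there, with a median of 0.62 against 1.08 in apex, where they had been selected. On chromosome 4 (4261315 to 4262493) the log2 fold change was 1.71 (SE 0.13) in apex and 0.52 (SE 0.23) in leaf. On chromosome 6 (3211225 to 3214064) it was 1.92 (SE 0.17) and 0.68 (SE 0.25), and on chromosome 1 (5157127 to 5159140) 1.48 (SE 0.20) and 0.26 (SE 0.12). These 3 were picked after their values were seen. In a fit of all 12 libraries, edgeR called 0 of 23517 genes for a difference of the genotype effect between tissues, and 991 (4.21%) had an unadjusted p under 0.05. Among the 52 apex genes 17 had an unadjusted p under 0.05, which is not independent of how they were picked, since the same apex libraries were used. The smallest edgeR adjusted p, 0.190, was that of the chromosome 4 locus at 21856576, with log2 fold changes of 3.49 in apex and 1.91 in leaf.

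**Figure D5:**
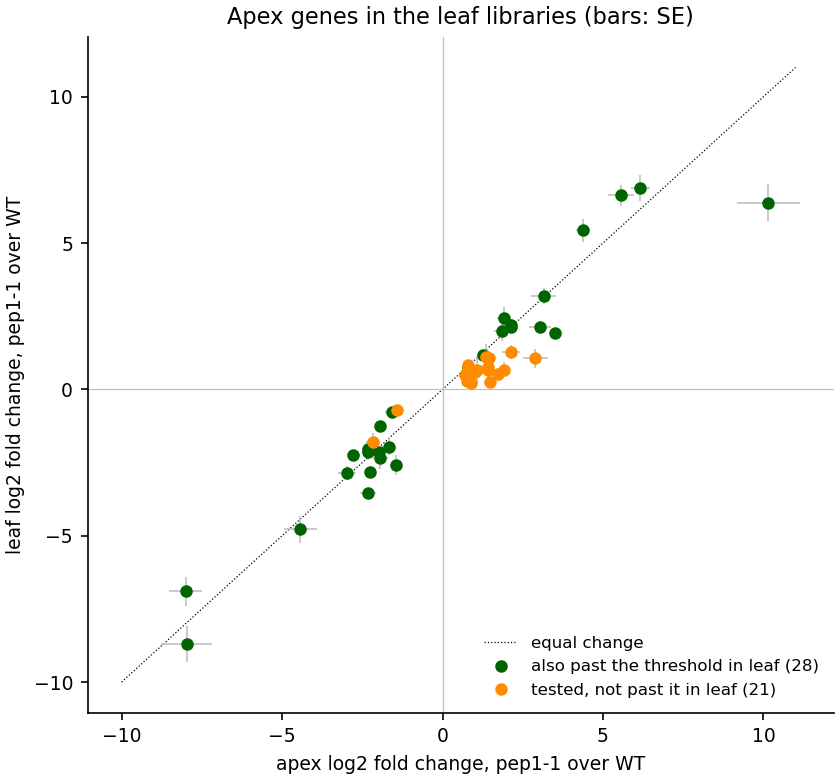
Leaf against apex log2 fold change (pep1-1 over WT) for the 49 called apex genes tested in leaf, with SE bars and the line of equal change. All points have the same sign on both axes, and 19 of the 21 that did not pass in leaf are rises.

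Rises were often transcripts with more reads in apex than in leaf. In WT libraries scaled together, on the log2(CPM + 0.5) scale, 13 of 34 rises (38.2%) had at least 2-fold more in apex than in leaf and 1 had at least 2-fold more in leaf. Among falls these numbers were 3 and 1 of 18, and among all genes tested 14.7% and 8.33%. The most apex-biased called gene was a fall on chromosome 1 (6361358 to 6363818), at 21.6, 15.1 and 13.4 CPM in WT apices and 5.85, 4.93 and 6.19 CPM in pep1-1 apices. In leaves it stood at no more than 0.0445 CPM in any library.

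Leaf material that an apex dissection could hold was followed through 14 strongly leaf-preferred genes, with at least 100 CPM in leaf and at least 16-fold less in apex over both genotypes. Their summed level was 84.3, 83.8 and 82.8 CPM in the WT apex libraries and 75.7, 67.0 and 54.2 CPM in the pep1-1 apex libraries. In leaf it was 7103, 6669 and 6955 CPM in the WT libraries and 7229, 5693 and 5607 CPM in the pep1-1 libraries. In apex the sum was lower in each mutant library than in each WT library. Of all genes tested 17.0% had no overlap between genotypes, but that share covers single genes in either direction and is not a like baseline for a sum. Of the 14, 9 could be tested in apex, 6 of them had a negative log2 fold change, the median was -0.24, and 0 passed. None of the 14 was among the 52 called genes, and their part in the result was not tested further. In whole apices, fewer cells of a type and less RNA per cell cannot be told apart.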

How the data were processed

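RNA was sequenced from 12 libraries, of which the 6 apex libraries were compared and the 6 leaf libraries gave side values. Polyadenylated RNA from 4 µg of total RNA was amplified over 12 PCR cycles, per the labels' protocols. The deposited tables hold raw read counts for each transcript row, as the authors made them. Per the submitters' processing notes, which give no roles, the tools were TopHat, bedtools and DESeq2 1.10.0. Strandedness, genome build and annotation were not given in the sources used here; overlapping, antisense or near-identical genes may share reads. Of 39814 transcript rows, the row with the highest total over all 12 libraries was kept for each of 35465 genes.

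The quasi-likelihood test of edgeR 4.0.16 (R 4.3.3) was run on the counts of the 6 apex libraries with TMM factors, filterByExpr, robust dispersion and Benjamini-Hochberg adjustment over all genes tested. Leaf libraries were fitted apart. Standard errors are the log2 fold change, without sign, divided by the root of F. Log2 CPM used a prior count of 2. Procedures were checked on simulated counts. Named genes passed the threshold, had at least 1 CPM in the higher genotype and no overlap between genotypes, and were the 12 largest rises and 12 largest falls. Alternatives were DESeq2 size factors, the Wald test of DESeq2 1.42.0, voom with limma 3.58.1, no filter, a replicate block, all 12 libraries in one fit, an adjusted p of 0.01, summed or first transcript rows, and each library left out. The members, lists and tests were chosen with earlier results of these data known. Gene lists and markers by name were not tested, because identifiers are not paired with names. No sequences are shown, because no genome was used.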

Additional observations from a re-analysis of the deposited data

How the results depend on the processing

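The main counts were 52 genes past the threshold, 34 higher, 18 lower, 43 at least 2-fold, 52 without overlap and 28 also past it in leaf. Of 90 recomputed counts, 36 stayed within 1.5 times and 54 did not. In the same order they were 412, 296, 116, 172, 408 and 124 with the DESeq2 Wald test, and 320, 199, 121, 139, 320 and 59 with all 12 libraries in one fit. Without the low-count filter 89 passed, 64 were higher and 89 had no overlap. An adjusted p under 0.01 left 17, 8, 9, 17, 17 and 13 by construction. Leaving out 1 library gave 15 to 140 genes, 8 to 123 higher and 7 to 17 lower. Of these, 15 to 97 were at least 2-fold, 15 to 140 were without overlap, and 12 to 25 were past it in leaf. Rises made up 65.4% of calls, 87.9% without pep1-1 replicate 2, and 47.4% to 58.1% without any other library. Named genes kept direction in all 336 values and lost the call in 44. Beside left-out libraries, limma-voom ended the call of Aa_G544180 (adjusted p = 0.0552), and limma-voom and no filter that of the chromosome 1 locus at 871518 (0.0661 and 0.0993). The causes were not tested.

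With the replicate number as a block, 600 genes passed, 408 higher and 192 lower, with 155 at least 2-fold and 487 without overlap, and 49 of the 52 were among them. Deviations of same-numbered WT and pep1-1 libraries correlated at 0.34, -0.031 and 0.34. Replicate 2 was below the minimum of 0.1, so no pairing was accepted. WT replicate 3 against pep1-1 replicate 1 gave -0.37, and WT replicate 1 against pep1-1 replicate 3 gave -0.34. Deviations of 3 libraries from their mean cancel, so a low value for replicate 2 cannot decide against pairing. Replicates 1 and 3 correlated best with their own number in both genotypes, and replicate 2 did not. The second principal component of the apex libraries has replicate 1 highest and replicate 3 lowest in both genotypes. Spread beyond counting noise was 11.2% with the block and 15.1% in the main fit, which has no replicate term. Pairing was not tested further. The chromosome 3 locus at 24168695 and the chromosome 1 locus at 871518 did not pass in the block fit (adjusted p = 0.0502 and 0.117).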

Other observations

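Of the 52 called apex genes, 5 have more than 1 transcript row. Their 6 unused rows all had the higher mean in the same genotype as the row that was used. At the chromosome 8 locus (5257134 to 5261576), the unused rows had WT means of 4.11 and 5.64 CPM and pep1-1 means of 0.820 and 1.09 CPM. By chromosome, 5 rises and 6 falls lay on chromosome 1 (0.416% of 2644 genes tested) and 8 rises and 4 falls on chromosome 8 (0.301% of 3988). Chromosomes 3, 4 and 7 held 3, 5 and 2 rises and 0 falls (0.104% of 2897, 0.242% of 2067 and 0.10% of 1992). On the unplaced scaffolds 1 gene rose and 4 fell (0.273% of 1832), and over all genes tested the share was 0.235%.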
